A study of Mus musculus with 8 samples.

Results

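The genes described here load peptides onto MHC class I or make those peptides, and they were followed in macrophages of mouse pancreas tumours. They are the 10 genes B2m, Tap1, Tap2, Tapbp, Tapbpl, Psmb8, Psmb9, Psmb10, Erap1 and Nlrc5, taken by the gene name that the array files give to a probe. The 10 were among 36994 genes named on the array and are measured by 18 probes. All 10 were among the 28000 genes tested, and 16 of the 18 probes passed the filter on dim signals.

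Gene expression was measured on 1-colour Agilent arrays in macrophages sorted by flow cytometry, with 4 arrays labelled High and 4 labelled Low for MHC class II, the surface complex that shows peptides to CD4 T cells. All 8 samples carry the strain name FvBn, female sex and an age between 8 and 10 weeks, and tumours had been implanted in the animals. No genotype is given for the 8 samples, while the design text of the series names wild-type, KPC and FLT3-CRE/LSL-YFP mice and both normal pancreas and tumour. The groups are called MHCII-high and MHCII-low, and each holds the label numbers 20435, 20436, 20439 and 20442 once. Whether the 4 samples of a group are 4 animals is not given, and the p-values therefore cover the spread among these 8 samples, technical or otherwise.

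MHC class I is carried by nearly all nucleated cells and shows peptides of the cell's own proteins to CD8 T cells. Proteasomes cut proteins into peptides, and under interferon gamma the catalytic subunits Psmb5, Psmb6 and Psmb7 are replaced in newly built proteasomes by Psmb8, Psmb9 and Psmb10, which gives the immunoproteasome. The transporter formed by Tap1 and Tap2 moves peptides into the endoplasmic reticulum, where Erap1 trims them and tapasin (Tapbp) and its relative TAPBPR (Tapbpl) edit what is loaded onto the heavy chain and B2m. Nlrc5 is the transactivator of class I genes, as Ciita is of class II genes. Dendritic cells also present antigen of other cells on class I, which is called cross-presentation.

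Psmb9 and Tap1 lie head to head in the MHC class II region, and the DNA between their starts serves as the promoter of both. The RefSeq promoter table of GRCm38.p6 held 7 of the 10 members, the others being Tap2, Tapbpl and Nlrc5. The sequences below are shown because Psmb9, Tap1 and Psmb8 had the largest differences between the groups, whereas B2m had almost none. The first is the whole interval of 225 bases between the Psmb9 and Tap1 starts, read toward Tap1 at chr17:34187331-34187555, plus strand. The Psmb8 stretch, chr17:34197945-34198194, and the B2m stretch, chr2:122147437-122147686, are the 250 bases before each start, also on the plus strand. Capitals mark matches, on either strand, to the core of the interferon-stimulated response element (GAAA, any 2 bases, GAAA), to TTCNNNGAA (the core of the interferon gamma-activated site), ATTGG (the CCAAT box read from the other strand), GGGCGG (the Sp1 box) and TGACG (the core of the cyclic AMP response element). These motifs were chosen after the sequences had been seen.
Psmb9 to Tap1: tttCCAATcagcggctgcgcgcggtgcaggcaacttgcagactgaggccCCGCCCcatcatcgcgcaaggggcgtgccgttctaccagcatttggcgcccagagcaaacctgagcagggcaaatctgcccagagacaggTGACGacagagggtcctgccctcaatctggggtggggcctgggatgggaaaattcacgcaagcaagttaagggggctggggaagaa
Psmb8: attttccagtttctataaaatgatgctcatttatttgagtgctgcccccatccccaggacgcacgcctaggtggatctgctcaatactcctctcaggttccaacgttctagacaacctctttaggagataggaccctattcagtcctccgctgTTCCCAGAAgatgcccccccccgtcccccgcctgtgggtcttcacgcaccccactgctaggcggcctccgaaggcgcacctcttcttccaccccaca
B2m: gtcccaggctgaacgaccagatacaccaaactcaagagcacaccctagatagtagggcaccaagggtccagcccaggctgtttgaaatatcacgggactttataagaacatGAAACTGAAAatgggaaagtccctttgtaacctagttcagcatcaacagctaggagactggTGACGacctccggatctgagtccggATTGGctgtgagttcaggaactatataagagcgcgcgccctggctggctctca

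In the shared interval the ATTGG match covers bases 4 to 8 from the Psmb9 start, the GGGCGG match bases 50 to 55 from it, and TGACG positions -86 to -82 relative to the Tap1 start. The Psmb8 stretch holds TTCNNNGAA at -97 to -89. The B2m stretch holds the response element core at -139 to -130, TGACG at -78 to -74 and ATTGG at -53 to -49, with no overlap. Among 32851 RefSeq windows of 300 bases (250 before and 50 from the start), the response element core was in 3.44%, TTCNNNGAA in 8.30%, ATTGG in 37.4%, GGGCGG in 35.7% and TGACG in 20.8%. Of the 7 members with a window, 2 held the response element core (B2m and Erap1) and 1 TTCNNNGAA, while ATTGG and GGGCGG were in 4 each and TGACG in 3. Psmb9 and Tap1 are counted there as 2 members in each of the last 3 counts, although their matches are the same bases of the shared interval. A match describes letters and is not a binding site.

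The array reads each gene through probes of 60 bases. Printed here are the Psmb9 and Psmb8 probes and the dimmer of 2 Tap1 probes, the genes with the largest differences. On mm9 they lie on chromosome 17 at 34319174 to 34319233 for Psmb9, 34337771 to 34337830 for Psmb8 and 34330854 to 34330913 for Tap1. Exons and UTRs of mm9 were not looked up.
Psmb9 probe: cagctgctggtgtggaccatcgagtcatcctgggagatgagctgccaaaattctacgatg
Psmb8 probe: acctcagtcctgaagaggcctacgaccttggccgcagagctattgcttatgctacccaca
Tap1 probe: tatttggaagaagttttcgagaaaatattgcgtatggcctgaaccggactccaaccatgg

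Signals passed the scanner's test against background for 38756 to 42120 of 56605 probes (68.5% to 74.4%). The arrays shared 1 slide and its scan time and stood in 2 rows. Row 1 held MHCII-high 20436 with 3 MHCII-low arrays, and row 2 held MHCII-low 20442 with 3 MHCII-high arrays. The sort was checked on Ciita, whose mean log2 signal was 0.11 in MHCII-low and 3.14 in MHCII-high. All 10 macrophage markers were well above background on all 8 arrays, and their mean log2 signal was 4.10 to 4.53 in MHCII-low and 3.67 to 4.06 in MHCII-high, with Adgre1, a surface receptor of macrophages, past the threshold at -1.69. Conventional dendritic cell markers were at -3.00 to -2.30 in MHCII-low and -0.41 to 1.01 in MHCII-high, and 9 of 10 were past the threshold toward MHCII-high. None of these 10 was below background on all arrays. Markers of T cells (-1.26 to -0.46 against -1.38 to -0.54) and neutrophils (-0.04 to 0.70 against -0.06 to 0.51) overlapped between the groups. B cell markers were at -1.36 to -0.38 in MHCII-low and -0.46 to 0.23 in MHCII-high. NK cell markers were at -1.63 to -1.07 and -0.93 to -0.65, with Klrk1 past it (1 of 6). Epithelial and acinar markers (-0.26 to 0.59 and -0.88 to 1.24, with Cdh1 past the threshold, 1 of 8) and fibroblast and endothelial markers (-0.44 to 0.66 and -1.85 to 0.05, 0 of 7) also overlapped.

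Psmb9, an inducible catalytic subunit, was the 1 member of 10 that passed the threshold, at 1.76-fold higher in MHCII-high. That call was lost with slide row or label number as a block (limma adjusted p = 0.101 and 0.0548). It held in 3 of 8 fits with 1 array left out. Tap1 and Psmb8 came next, at 1.66-fold and 1.62-fold, and did not pass. Differences of B2m, Erap1 and Nlrc5 lay within 0.1 of 0 on the log2 scale by their brightest probes. Log2 changes are MHCII-high minus MHCII-low, tested with limma's moderated test and Benjamini-Hochberg adjustment over all 28000 genes at a threshold of 0.05, and a gene is read by its brightest probe. Of all genes, 4.92% passed in either direction, 2.68% higher and 2.25% lower in MHCII-high. The median log2 change was 0.27 over the 10 members and 0.002 over all genes, and 8 of the 10 values were above 0. In 5 members (Psmb9, Tap1, Psmb8, Tap2 and Tapbpl) every MHCII-high array was above every MHCII-low array, which held for 7.48% of all genes, and in 0 members the reverse, which held for 6.96%. Those 5 had an unadjusted p under 0.05, as had 19.7% of all genes. Of the 16 member probes tested, 1 was past the threshold toward MHCII-high and 0 toward MHCII-low, where 5.19% of 41184 probes passed, 2.77% higher and 2.43% lower. In 6 member probes the groups did not overlap with MHCII-high above, against 7.58% of all probes, and in 0 with MHCII-high below, against 7.22%. Those 6 had an unadjusted p under 0.05, as had 20.4% of all probes. In sorted samples, fewer cells of a type and less RNA per cell cannot be told apart.

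**Figure D1:**
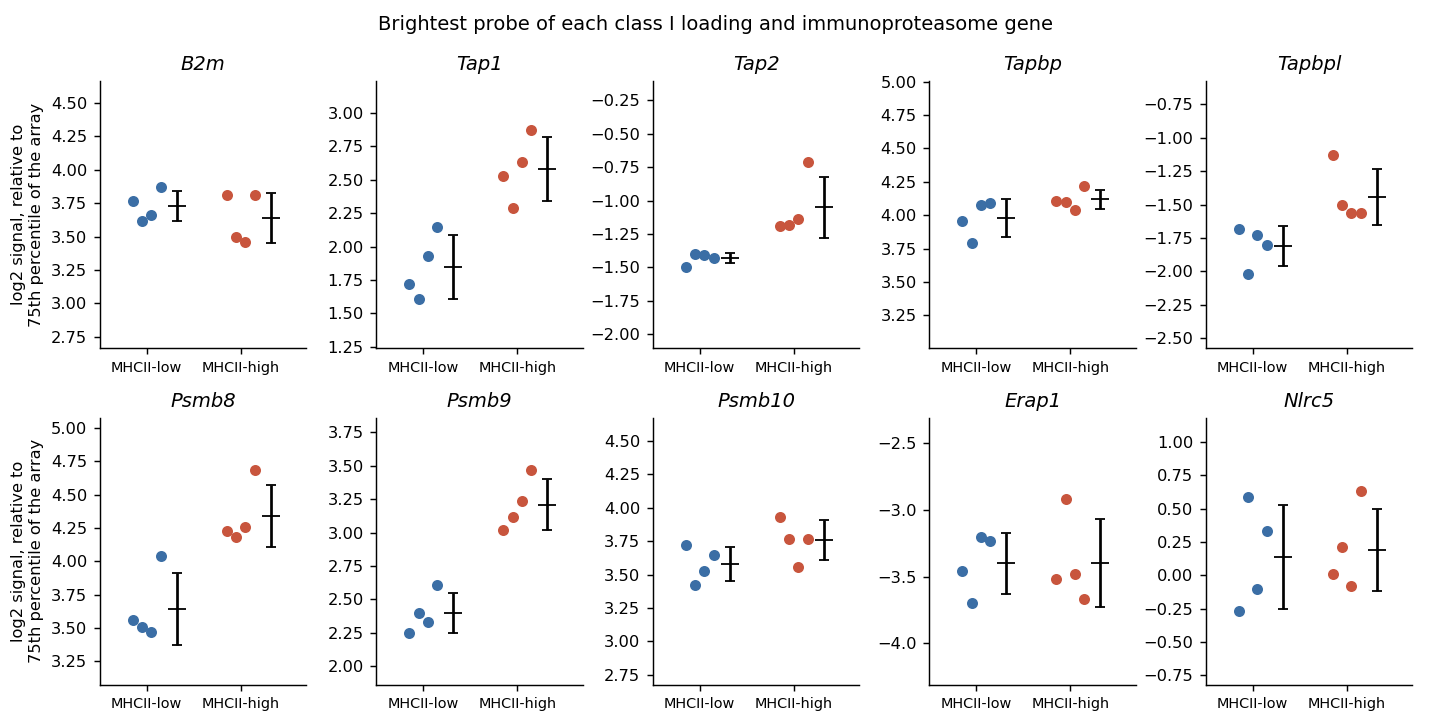
Each panel shows the brightest probe of 1 gene on the 8 arrays, with log2 signal relative to the array's 75th percentile on the y axis and the MHCII-low (blue) and MHCII-high (red) groups on the x axis. Bars give mean and SD (n = 4), and every panel spans 2 log2 units. Psmb9, Tap1, Psmb8, Tap2 and Tapbpl show no overlap between the groups.

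The catalytic subunits are described first. Psmb9 replaces the constitutive subunit Psmb6. Its log2 signal in MHCII-low arrays 20435, 20436, 20439 and 20442 was 2.25, 2.40, 2.33 and 2.61, and in the MHCII-high arrays of the same numbers 3.02, 3.12, 3.24 and 3.47. All MHCII-high arrays were above all MHCII-low arrays. The means were 2.40 ± 0.15 and 3.21 ± 0.19 (SD, n = 4), and the difference of 0.81 (SE 0.15, 95% interval 0.46 to 1.17) had an adjusted p of 0.0237. A second Psmb9 probe, placed on another transcript model, was not well above background on any array (-7.75 to -7.32 and -7.86 to -7.38) and was not tested. The call of Psmb9 held in 3 of 8 fits with 1 array left out, with changes of 0.73 to 0.89 and adjusted p from 0.0331 to 0.0768. It was lost without MHCII-high 20439 or 20442 and without MHCII-low 20435, 20436 or 20439. Blocking on slide row gave 0.71 (adjusted p = 0.101), and within rows 1 and 2 it was 0.79 and 0.63, each resting on a single array of 1 group. With the label number as block the call was lost as well (0.81, limma adjusted p = 0.0548).

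Psmb8, which replaces Psmb5, had log2 signals of 3.56, 3.51, 3.47 and 4.04 in MHCII-low and 4.23, 4.18, 4.26 and 4.68 in MHCII-high, in the same order of label numbers. Array 20442 was the highest in each group, and the groups did not overlap. The means were 3.64 ± 0.27 and 4.34 ± 0.23 (SD, n = 4), with a difference of 0.69 (SE 0.19, interval 0.27 to 1.12, limma adjusted p = 0.0756). Psmb8 passed with normexp background correction (0.68, limma adjusted p = 0.0187) and with quantile normalization (0.73, 0.0361). The deposited series table gave the same values (0.73, 0.0361), but it nearly equals the quantile normalization and is no separate check. Dropping any 1 array left Psmb8 short of the threshold, in 0 of 8 fits called (limma adjusted p 0.0508 to 0.171). Blocks for label number (0.0767) or slide row (0.239) also gave no call. Neither did the filter on all 8 arrays (0.055), nor keeping dim probes (0.0959), for Psmb8. With the row block it was 0.51, and 0.67 and 0.35 within rows 1 and 2.

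Psmb10, which replaces Psmb7, lay at 3.72, 3.42, 3.53 and 3.65 in MHCII-low and 3.93, 3.77, 3.56 and 3.77 in MHCII-high. The groups overlapped, and the difference of 0.18 (SE 0.14, interval -0.15 to 0.50) did not pass (limma adjusted p = 0.543). The interval leaves room for a change of the size seen for Tap2 but not for that of Psmb9.

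None of the 3 constitutive partners passed toward MHCII-high. Psmb5 had means of 4.23 ± 0.30 in MHCII-low and 4.21 ± 0.11 in MHCII-high (SD, n = 4), and Psmb6 4.41 ± 0.15 and 4.35 ± 0.05, with log2 changes of -0.03 and -0.06. Psmb7 was at 3.33, 3.24, 3.41 and 3.24 in MHCII-low and 2.76, 2.80, 2.63 and 2.69 in MHCII-high, and fell by 0.59 (limma adjusted p = 0.0343). That call was lost on leaving out any 1 of the 8 arrays (limma adjusted p 0.0603 to 0.113). It was also lost with the row block (0.134) and with the label number block (0.119). The change stayed between -0.61 and -0.53 in these fits and within rows. A second Psmb6 probe gave 0.00.

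Each inducible subunit was then set against the constitutive subunit whose place it takes, as the difference of their log2 signals on each array, which shows unequal change and not amounts. Psmb9 minus Psmb6 was -2.13, -1.89, -2.01 and -2.01 in MHCII-low and -1.40, -1.22, -1.06 and -0.87 in MHCII-high, a shift of 0.87. Psmb8 minus Psmb5 was -0.72, -0.68, -0.40 and -0.55 against -0.01, -0.03, 0.22 and 0.37, a shift of 0.72. Psmb10 minus Psmb7 was 0.39, 0.18, 0.12 and 0.41 against 1.17, 0.97, 0.93 and 1.07, a shift of 0.76. In all 3 pairs the 4 MHCII-high arrays were above the 4 MHCII-low arrays. Among single genes the groups did not overlap in 7.48% with MHCII-high above and in 6.96% with MHCII-high below. No such share was computed for differences between genes. Psmb9 and Psmb8 separated upward and Psmb7 downward on their own. The two-sided exact permutation p was 0.0286 for each pair, the smallest that 70 assignments of 8 arrays can give, and 0.0286 after Benjamini-Hochberg adjustment over the 3 pairs. The parts differed between pairs. In Psmb9 and Psmb8 the inducible subunit accounted for a change of 0.81 and 0.69 with partners near 0, whereas in the Psmb10 pair Psmb10 was at 0.18 and Psmb7 at -0.59. Exact permutation within slide rows gave 0.0625, the smallest that 16 assignments allow, with shifts of 0.84, 0.65 and 0.69. Exact permutation within label numbers gave 0.125, also the smallest possible there, with shifts of 0.87, 0.72 and 0.76. Within rows 1 and 2 the shifts were 0.79 and 0.90 for Psmb9, 0.56 and 0.74 for Psmb8, and 0.74 and 0.65 for Psmb10.

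**Figure D2:**
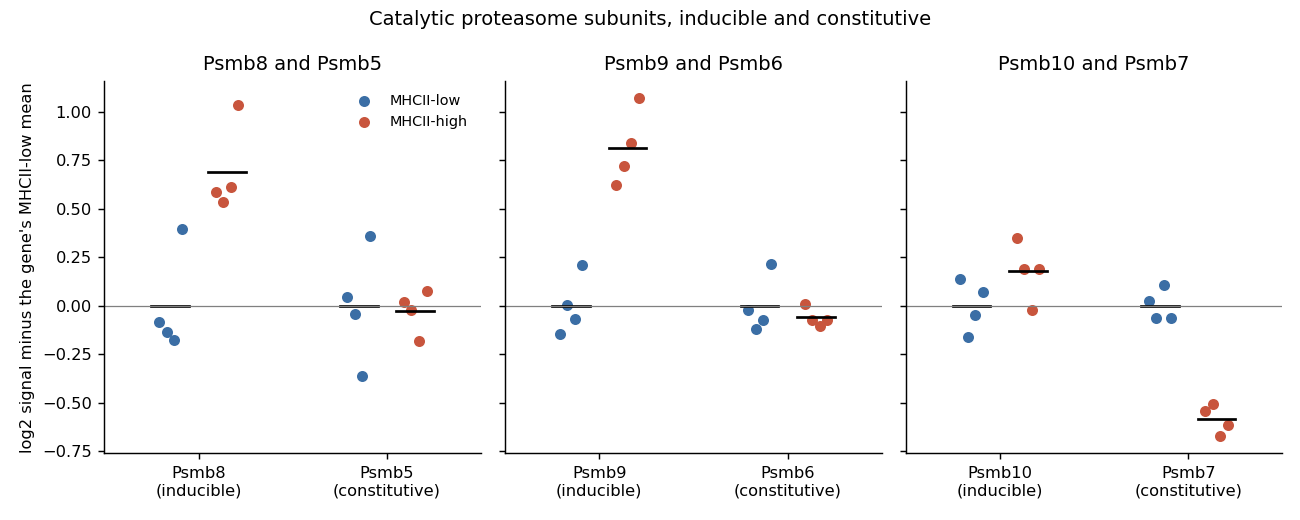
Log2 signal of each catalytic subunit minus that gene's MHCII-low mean (y axis), for the 3 inducible subunits and the constitutive subunits they replace (x axis). Points are arrays (blue MHCII-low, red MHCII-high) and black lines are means. MHCII-high means were 0.69, 0.81 and 0.18 for Psmb8, Psmb9 and Psmb10 and -0.03, -0.06 and -0.59 for Psmb5, Psmb6 and Psmb7.

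In the peptide transporter, Tap1 was read by 2 probes, neither of which passed the threshold. The brighter probe (mm9 chromosome 17, 34334022 to 34334081) had log2 signals of 1.72, 1.61, 1.93 and 2.15 in MHCII-low and 2.53, 2.29, 2.63 and 2.87 in MHCII-high. The groups did not overlap, and the means were 1.85 ± 0.24 and 2.58 ± 0.24 (SD, n = 4). The difference of 0.73 (SE 0.18, interval 0.31 to 1.15) had a limma adjusted p of 0.0626. The other probe, whose sequence is printed, gave -1.60, -1.98, -1.93 and -1.32 against -1.14, -0.79, -0.90 and -0.02, a difference of 1.0 (adjusted p = 0.0746 in the fit of 41184 probes). There, too, no array of one group overlapped with the other. Tap1 passed with normexp (0.65, adjusted p = 0.02) and among genes well above background on all 8 arrays (0.73, 0.0438). It passed barely with the deposited series table (0.76, 0.05 after rounding) and barely failed with quantile normalization (0.75, 0.0501). Tap1 passed in 0 of 8 fits with 1 array left out (limma adjusted p 0.0636 to 0.157), and not with the label number block (0.0688). With the row block it was 0.53 (adjusted p = 0.191), and 0.53 within each row.

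Tap2, the other chain of the transporter, had MHCII-low values of -1.50, -1.40, -1.41 and -1.43 and MHCII-high values of -1.19, -1.18, -1.14 and -0.71. MHCII-high 20442 stood apart from the other 3. The difference was 0.38 (SE 0.15, interval 0.03 to 0.73, limma adjusted p = 0.210). A second Tap2 probe, above background on 2 MHCII-low and 4 MHCII-high arrays, gave 0.84 (interval -0.04 to 1.73, adjusted p = 0.269).

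For the peptide editors no call was made. Tapbpl had values of -1.68, -2.02, -1.73 and -1.80 in MHCII-low and -1.13, -1.50, -1.56 and -1.56 in MHCII-high, without overlap, and a difference of 0.37 (SE 0.16, interval 0.01 to 0.73, limma adjusted p = 0.241). Tapasin (Tapbp) had 3.96, 3.79, 4.08 and 4.09 against 4.11, 4.10, 4.04 and 4.22. The difference of 0.14 (interval -0.16 to 0.44) did not pass (limma adjusted p = 0.612), and a second probe gave 0.34 (interval -0.04 to 0.72, adjusted p = 0.296).

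B2m, the light chain of every class I complex, showed no detectable difference. Its values were 3.77, 3.62, 3.66 and 3.87 in MHCII-low and 3.81, 3.50, 3.46 and 3.81 in MHCII-high, and the difference was -0.09 (SE 0.15, interval -0.42 to 0.25, limma adjusted p = 0.796). A second probe gave 0.02 (interval -0.34 to 0.38). The interval of the brightest probe excludes a rise of the size measured for Psmb9, Tap1 or Psmb8. The classical heavy chains H2-K1 and H2-D1, which pair with B2m, were at -0.09 and -0.17 (limma adjusted p of 0.84 and 0.512).

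Erap1, the trimming peptidase, overlapped between the groups, at -3.46, -3.70, -3.20 and -3.23 in MHCII-low and -3.52, -2.92, -3.48 and -3.67 in MHCII-high. The difference was 0.00 (SE 0.20, interval -0.47 to 0.46). Within slide rows 1 and 2 it was 0.53 and -0.33, each resting on a single array of 1 group, and with the mean of all its probes -0.38 (limma adjusted p = 0.412). A second probe, well above background on 7 arrays, gave -0.76 with an interval of -1.80 to 0.27. It did not pass in limma (adjusted p = 0.394), and its MHCII-high arrays ranged from -5.38 to -3.03. Its remaining probe was not well above background on any array.

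Nlrc5 had -0.27, 0.59, -0.10 and 0.33 in MHCII-low and 0.01, 0.21, -0.08 and 0.63 in MHCII-high. The difference was 0.06 (SE 0.24, interval -0.49 to 0.61, limma adjusted p = 0.926), and a second probe gave 0.29 (interval -0.14 to 0.72, adjusted p = 0.435). The class II transactivator Ciita, by contrast, rose by 3.03 (adjusted p = 0.000886) in the same fit. Ciita follows the marker of the sort and is no independent finding.

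**Figure D3:**
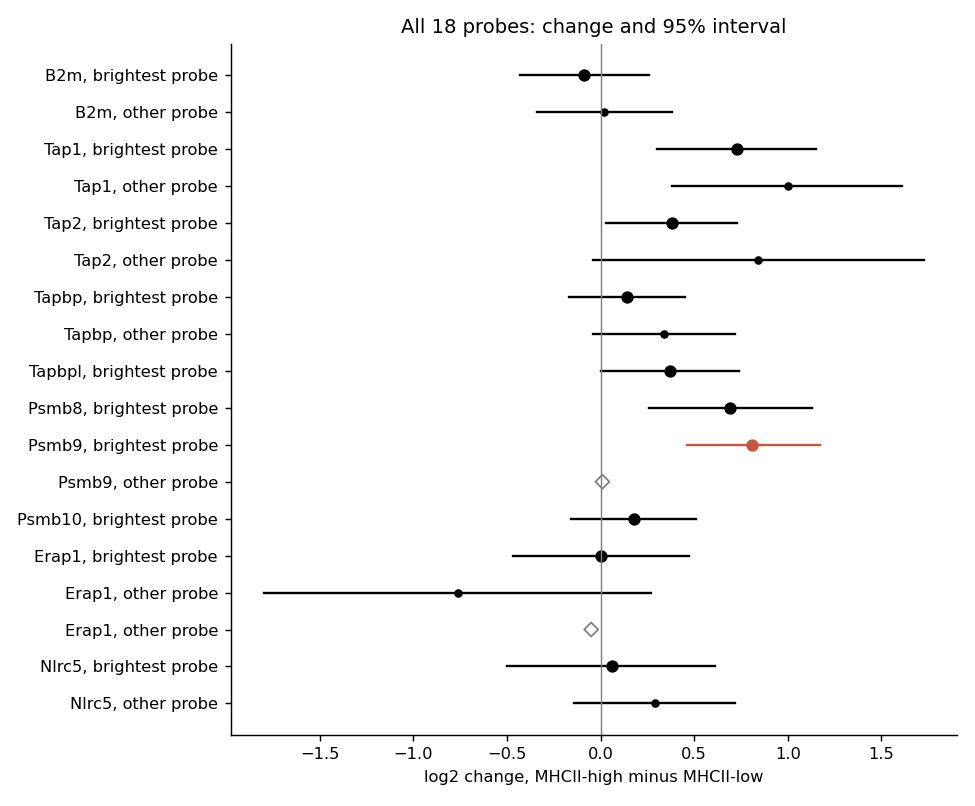
Log2 change (MHCII-high minus MHCII-low, x axis) with its 95% interval for the 18 probes of the 10 genes (y axis), from the limma fit of all probes. Large points are the brightest probe of a gene, small points its other probes, red marks an adjusted p under 0.05, and open diamonds are 2 probes not well above background on any array. The Psmb9 probe at 0.81 is the red one.

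Psmb9, Tap1, Psmb8 and Tap2 follow each other without another protein-coding gene between them in the RefSeq order of chromosome 17, inside the class II region. Their log2 changes in this order were 0.81, 0.73, 0.69 and 0.38. The class II genes on either side follow the marker of the sort: the chaperone chains H2-DMb1 and H2-DMb2 beside Psmb9 rose by 0.95 and 3.34, and H2-Ob and H2-Ab1 beside Tap2 by 2.71 and 2.0. Brd2, which lies among the chaperone genes and has no role in class II, was at 0.06. At the ends of the stretch shown, Col11a2 was at 0.33 without overlap between the groups (limma adjusted p = 0.236). Btnl2 at the other end was at 0.14 (limma adjusted p = 0.813). Of the other members, Tapbp (0.14) lies before Psmb9 on chromosome 17, apart from this run, and the rest lie on other chromosomes.

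**Figure D4:**
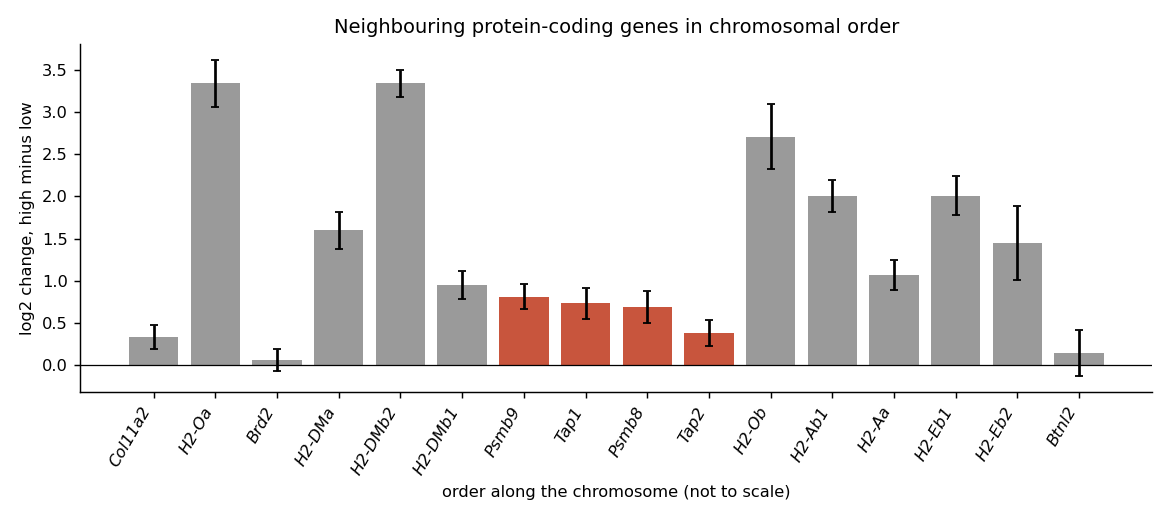
Log2 change (y axis, with SE from limma) of 16 protein-coding genes in their order along chromosome 17 (x axis, not to scale). Red bars are Psmb9, Tap1, Psmb8 and Tap2, at 0.81, 0.73, 0.69 and 0.38, and grey bars are neighbours, of which H2-Oa and H2-DMb2 reach 3.34.

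The rest of the class I pathway was read from lists of named genes. Of 11 further 20S proteasome subunits, 0 passed in limma in either direction, and their changes ran from -0.24 (Psma6) to 0.15 with a median of -0.03. At an unadjusted p under 0.05 it was also 0. Of 8 proteasome activators and assembly factors, 0 passed in limma (2 at an unadjusted p under 0.05), with Psmg1 at -0.69 and Psme4 at -0.54. Psme1, a chain of the interferon-inducible PA28 activator named after its values were seen, was at 0.52 (limma adjusted p = 0.0869) without overlap between the groups. Of 8 other peptidases 0 passed in limma (1 at an unadjusted p under 0.05), with Npepps at -0.42 and Thop1 at 0.30.

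Of 9 chaperones of the endoplasmic reticulum, read by their brightest probes, 1 fell and 0 rose, all 9 values were below 0 and the median was -0.22. P4hb, a protein disulfide isomerase, fell by 0.64 (limma adjusted p = 0.0319). Among the 8 leave-one-out fits it kept the call only without MHCII-high 20436 (adjusted p up to 0.105). It lost the call with the row block (0.126), with the label number block (0.109) and with the mean of its probes (0.0856). Its second probe gave -0.7 and did not pass (limma adjusted p = 0.218 in the fit of all probes). Calnexin (Canx), which holds new heavy chains and was named after its values were seen, was at -0.59 by each of its 2 probes (adjusted p = 0.0739 for the brightest).

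Among 9 genes of interferon gamma signalling, 1 rose and 0 fell. Jak2, a kinase of the interferon gamma receptor, rose by 1.87 (limma adjusted p = 0.00123, MHCII-low -1.46 to -1.14, MHCII-high 0.29 to 0.75), and a second probe gave 4.34. The receptor chain Ifngr1 was at 0.29 and the transcription factor Irf1 at -0.03, neither past the threshold. Both were named after their values were seen, as was Socs1, the feedback inhibitor, at 0.92 (adjusted p = 0.0603). Among 11 promoter factors, Ciita and Nfkb1 rose and 0 fell. Nfkb1, the p50 chain of NF-kB, rose by 0.65 (limma adjusted p = 0.0277). Among the 8 leave-one-out fits it kept the call only without MHCII-low 20442 (adjusted p up to 0.0782). It lost the call with the row block (0.108) and with the label number block (0.0892). Its other probes gave 1.38 and 0.55 and did not pass (limma adjusted p of 0.0528 and 0.0894 in the fit of all probes).

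Of 11 genes of cross-presentation, 2 rose and 1 fell. Wdfy4, needed for cross-presentation by type 1 conventional dendritic cells, rose by 1.24 (limma adjusted p = 0.0083), and Clec9a, their receptor for dead cells, by 3.86 (adjusted p = 0.0148). Clec9a lost the call with the row block (0.067), and its second probe gave 4.34 (adjusted p = 0.0557 in the fit of all probes). Rab27a, a GTPase of vesicle traffic, fell by 1.34 (adjusted p = 0.00957). Its second probe gave -1.52 and did not pass (adjusted p = 0.104 in the fit of all probes). Clec9a is also in the dendritic cell marker list, whose mean log2 signal was at most -2.30 in MHCII-low and at least -0.41 in MHCII-high. The part of these markers in the changes of Psmb9, Tap1 and Psmb8 was not tested.

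The genes with the most similar profiles over the 8 arrays were found by the root mean square difference of centred log2 signals, among 17476 other genes that carry a RefSeq symbol and were well above background on all arrays. For Psmb9 they were Snord17 and Olfr1218 (0.093 each) and Cd80 (0.111), for Tap1 Tlr9 (0.057), Tmem229b (0.072) and Exosc5 (0.073), and for Psmb8 Ckb and Olfr316 (0.092 each) and Btg2 (0.102). Among the members themselves, Psmb8 was at rank 10 and Tap1 at rank 26 from Psmb9, and Tap2 at rank 374. B2m was at rank 7043 and Nlrc5 at rank 5521. These ranks describe the profiles of 8 arrays from 1 slide.

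**Figure D5:**
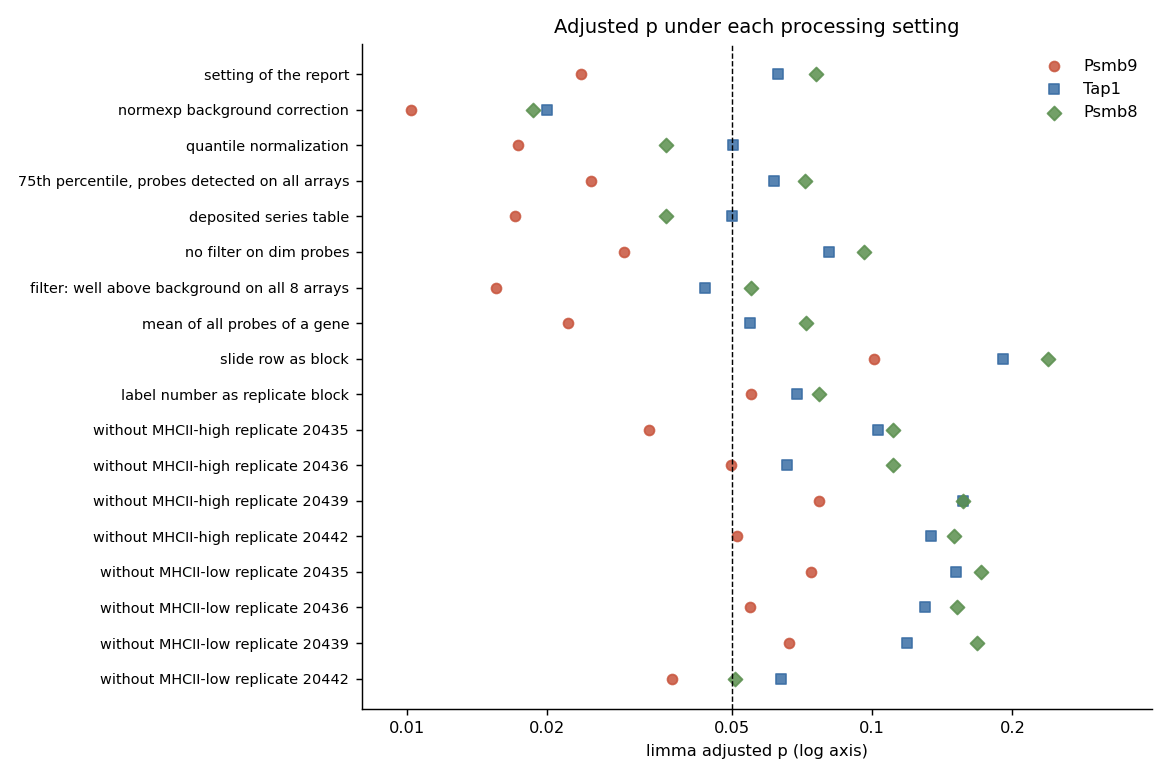
Limma adjusted p (x axis, log scale) of Psmb9, Tap1 and Psmb8 in the setting of the report, under 9 other settings and with 1 array left out (y axis). The dashed line is 0.05, and Psmb9 lies left of it in the setting of the report at 0.0237 and right of it at 0.101 when slide row was a block.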

How the data were processed

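Each sample was hybridised to 1 array with Cy5 label. The deposited scanner files hold spot intensity in 1 colour on a linear scale, background-subtracted and detrended within the array, with surrogate values for dim spots, written by version 11.5.1.1 of Agilent's Feature Extraction, per the file headers. The deposited series table holds log2 values whose making is not given in the sources used here. Its array medians were 9.38137 to 9.38149, and its columns correlated at 0.999998 or more across probes with a quantile normalization of the log2 processed signals computed here, so its scale and direction are those of the log2 signal, with no centring of genes.

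Control spots and spots marked as outliers were left out, log2 processed signals were taken relative to the 75th percentile of the array, with repeated spots averaged. A probe was kept if 4 or more of the 8 arrays had it well above background. Genes were named through RefSeq (GRCm38.p6), and members by the name in the files. Groups were compared by limma 3.58.1 (R 4.3.3), with no covariates and a Benjamini-Hochberg threshold of 0.05. The number of arrays limits the precision. Members and lists were chosen with earlier results of these data known. Named genes are all members, list genes past the threshold or, where none passed, the 2 with the largest change, the constitutive catalytic subunits, and the 3 nearest profiles to Psmb9, Tap1 and Psmb8. Canx, Psme1, Ifngr1, Irf1 and Socs1 were named outside this rule, after their values were seen. Alternatives were another background correction, scaling, filter, probe choice or source of values, blocks for slide row and label number, and each array left out. Some single genes of the lists are not reported here.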

Additional observations from a re-analysis of the deposited data

Results flagged for a closer look

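Single arrays stood apart within their group of 4 in 4 of the 42 groups of values examined, where chance gives about 1 in 20. The groups share arrays and some share probes, so they are not independent. Whether 4 is more than chance gives was not tested. In Psmb8, array 20442 was the highest in MHCII-high at 4.68 (others 4.18 to 4.26) and in MHCII-low at 4.04 (others 3.47 to 3.56). In Tap2 the brightest probe was at -0.71 on MHCII-high 20442, with the others at -1.19 to -1.14. In Tapbpl it was at -1.13 on MHCII-high 20435, with the others at -1.56 to -1.50.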

How the results depend on the processing

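Of the 10 members, 1 passed the threshold. That count was 3 with normexp (Psmb9, Psmb8, Tap1) and with the deposited series table (the same 3), 2 with quantile normalization (Psmb9, Psmb8), 2 with the filter on all 8 arrays (Psmb9, Tap1), 0 when slide row was a block and 0 with the label number as replicate block, and 0 to 1 with 1 array left out. Of the member probes, 1 passed, with 3, 2, 2, 3, 0 and 0 under the same settings in the order normexp, quantile, series table, filter, row and label number, and 0 to 1 with 1 array left out; probes were followed beyond the unfiltered fit after seeing the data, as were the list genes. Of all 28000 genes, 1379 passed, 1881 with normexp, 1471 with the series table and 1470 with quantile normalization. The filter on all 8 arrays gave 1664 of 24498. The row block gave 455 (432 of them among the 1379), the replicate block 802 (679 among them) and leaving out 1 array 546 to 1157. Whether the label numbers pair the samples is not given, and the main fit left them out for that reason. In addition, 1 pair missed a cut-off of r over 0.1. Same-numbered arrays deviated together at r of 0.084 to 0.21, 3 of 4 pairs were over 0.1, and 8 of 8 arrays correlated best with their own number. Such a cut-off cannot show that samples are unpaired. If the numbers do pair them, the replicate block is the fit that applies, and 0 of the 10 members passed in it. With the replicate block Psmb9 was at 0.81 (adjusted p = 0.0548), and exact permutation within label numbers gave 0.125, the smallest it can give, for shifts of 0.87, 0.72 and 0.76 in Psmb9, Psmb8 and Psmb10 against their partners. Permutation within slide rows gave 0.0625 for 0.84, 0.65 and 0.69. With 1 array left out these shifts were 0.78 to 0.96, 0.64 to 0.78 and 0.71 to 0.81. Erap1 was at -0.38 with the mean of its probes and at 0.53 and -0.33 within rows 1 and 2, and turned to 0.02 with normexp and 0.10 with the row block, where Nlrc5 was at 0.00, and with 1 array left out they ranged from -0.16 to 0.09 and -0.09 to 0.21. The cause of these differences was not tested.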
